A study of Mus musculus with 9 samples.

Results

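The mitosis genes described here are 34 named genes of the 27998 in the deposited count matrix. They were given as a list of names, and all 34 had counts in the cells. They were measured in 1 single-cell library of cells of ascites, fluid of the abdominal cavity, from mice with the genotype B6_WT and tumours of ID8-Def29/Vegf. ID8-Def29/Vegf is a mouse ovarian cancer line engineered to express the defensin Defb29 and the angiogenic factor Vegf. The labels name no treatment for these cells and do not say how many mice gave them. The series also holds cultured ID8-Def29/Vegf cells, with 4 samples given Deferiprone, an iron chelator, for 12 h and 4 given Vehicle, which are not analysed here. With 1 library no difference between cells could be tested against replicates, and the intervals below are 95% intervals that cover counting error only. Those of levels and ratios take each UMI as an independent draw, so they are too narrow where the UMIs lie in few cells.

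A dividing cell enters mitosis when cyclin B activates the kinase Cdk1, and it leaves when the anaphase-promoting complex marks cyclin B and securin for destruction. In between, motor proteins and microtubule-bundling proteins build the spindle, kinetochores tie the chromosomes to it, and the spindle checkpoint holds the cell back until every chromosome is attached. The transcripts of these proteins build up in G2 and mitosis and are low in cells that have stopped dividing. For that reason such genes are widely used to find proliferating tumour cells and immune cells in single-cell data.

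Cells were kept with at least 500 unique molecular identifiers (UMIs, each standing for a captured transcript), at least 200 genes and at most 15% mitochondrial UMIs. Of the 6442 kept cells, 3660 were tumour-like, with 3 or more UMIs summed over Krt8, Krt18, Krt19, Wt1 and Upk3b and at most 1 over the complement genes C1qa, C1qb and C1qc. Macrophages, 1076 cells, had 3 or more C1q UMIs and at most 1 of the keratin set, and 1706 cells were neither. In tumour-like cells Krt18 stood at 513 and Wt1 at 447 CPM (UMIs of the gene per 1000000 UMIs of all genes in those cells), but the epithelial markers Epcam and Cdh1 stood at 1.20 and 0 CPM, so the name rests on keratin and mesothelial genes, which host mesothelial cells also carry. Macrophages had C1qa at 4059 CPM, Csf1r at 369 CPM and Adgre1 at 71.4 CPM. Median depth was 5007 UMIs in tumour-like cells, 1639.5 in macrophages and 1177 in other cells.

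The promoters of many mitosis genes carry a short element named CHR, most often TTTGAA, and CCAAT boxes, bound by the MuvB complexes and by NF-Y in other mammalian cells. The windows below show how these letters are placed in the 5 members with the most UMIs in tumour-like cells that have a RefSeq window (GRCm38.p6). Each runs from 150 bases before to 30 bases after the annotated start, and capitals mark TTTGAA or CCAAT on either strand.
Top2a, chr11:99024160-99024339, minus strand: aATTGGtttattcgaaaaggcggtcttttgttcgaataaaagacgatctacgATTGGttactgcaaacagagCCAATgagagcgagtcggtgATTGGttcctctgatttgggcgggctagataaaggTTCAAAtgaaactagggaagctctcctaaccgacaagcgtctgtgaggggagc
Birc5, chr11:117849087-117849266, plus strand: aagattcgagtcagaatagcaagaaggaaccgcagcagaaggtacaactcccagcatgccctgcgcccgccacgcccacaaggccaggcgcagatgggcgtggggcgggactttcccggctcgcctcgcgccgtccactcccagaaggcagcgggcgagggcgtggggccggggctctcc
Cenpa, chr5:30666736-30666915, plus strand: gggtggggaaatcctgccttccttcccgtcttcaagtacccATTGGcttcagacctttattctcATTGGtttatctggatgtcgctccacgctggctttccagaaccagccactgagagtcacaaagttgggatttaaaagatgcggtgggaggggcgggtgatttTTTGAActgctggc
Cenpf, chr1:189688057-189688236, minus strand: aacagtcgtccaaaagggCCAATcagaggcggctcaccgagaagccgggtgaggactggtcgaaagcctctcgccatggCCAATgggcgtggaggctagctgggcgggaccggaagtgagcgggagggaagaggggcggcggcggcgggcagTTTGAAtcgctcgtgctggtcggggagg
Prc1, chr7:80294301-80294480, plus strand: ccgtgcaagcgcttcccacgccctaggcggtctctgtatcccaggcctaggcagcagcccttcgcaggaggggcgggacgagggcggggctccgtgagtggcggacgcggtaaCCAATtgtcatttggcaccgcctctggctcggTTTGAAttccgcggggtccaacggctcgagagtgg

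With the first transcribed base as position 1, TTTGAA or its reverse complement began at -23 in Top2a, at -5 in Prc1, at 3 in Cenpf and at 17 in Cenpa. CCAAT on either strand lay upstream of it in these 4 windows, nearest at -58 in Top2a, -37 in Prc1, -71 in Cenpf and -86 in Cenpa. The Birc5 window held neither run of letters. Whole windows of 300 bases, 250 before and 50 after the start, were present for 28 of the 34 members. TTTGAA on either strand was found in 20 of these 28 members, against 20.2% of the 27025 genes with a window. In the last 100 bases of the window, around the start, it was found in 18 of the 28 members, against 5.72% of genes. CCAAT on either strand was found in 21 of the 28 members, against 41.1% of genes, and both were found in 17, against 7.97% of genes. The motifs do not overlap in the windows shown, and a match is a description of the sequence, not a bound site.

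Most mitosis gene UMIs were in tumour-like cells, which also held most UMIs of all genes. They had 6490 of the 7638 member UMIs, 85.0%, beside 80.6% of all UMIs, against 434 member UMIs in macrophages and 714 in other cells. Summed over the 34 genes the level was 325 CPM (317 to 333) in tumour-like cells, 228 CPM (207 to 250) in macrophages and 245 CPM (227 to 263) in other cells. Barcodes of 100 to 200 UMIs, too shallow to be kept as cells, held the members at 448 CPM (433 to 463), above all 3 classes. For 21 of the 34 members the level in these barcodes was above that of tumour-like cells, and for 17 it was above all 3 classes. The part of free RNA in the class levels was not tested. Cells with 3 or more member UMIs made up 8.66% (7.77 to 9.62%) of tumour-like cells, 317 of 3660. In macrophages the share was 1.77% (1.07 to 2.74%), 19 of 1076, and in other cells 2.58% (1.88 to 3.45%), 44 of 1706. The interval of tumour-like cells lay above those of the other classes, while their median depth was also higher, 5007 UMIs against 1639.5 in macrophages and 1177 in other cells.

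**Figure D1:**
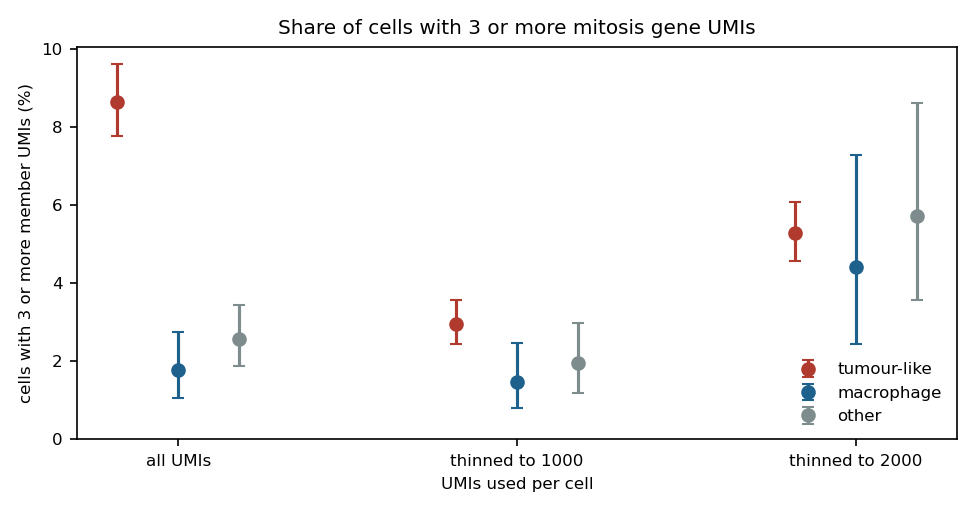
Share of cells with 3 or more mitosis gene UMIs in tumour-like (left), macrophage (middle) and other cells (right) with all UMIs and after each cell was thinned to 1000 or 2000 UMIs. Bars are exact 95% intervals. The 3 classes are 8.66%, 1.77% and 2.58% with all UMIs, and their intervals overlap at 1000 and at 2000 UMIs.

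At equal depth the classes stood closer. With each cell thinned to 1000 UMIs and shallower cells left out, 2.96% (2.44 to 3.57%) of 3610 tumour-like cells had 3 or more member UMIs. The share was 1.47% (0.808 to 2.46%) of 950 macrophages and 1.95% (1.19 to 2.99%) of 1028 other cells. With 2000 UMIs the shares were 5.29% (4.56 to 6.10%) of 3403 tumour-like cells, 4.42% (2.44 to 7.30%) of 317 macrophages and 5.72% (3.58 to 8.61%) of 367 other cells. That depth left out 759 of the 1076 macrophages and 1339 of the 1706 other cells, so it describes the deepest of them. The summed member level at 2000 UMIs was 266 CPM in tumour-like cells, 271 in macrophages and 253 in other cells. At 1000 UMIs it was 259, 181 and 198 CPM. The counting intervals of the shares overlap between all 3 classes at 2000 UMIs. They also overlap at 1000 UMIs, narrowly so for tumour-like cells and macrophages. A difference between the classes was not tested.

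Mitosis gene UMIs were gathered in few cells. Of the tumour-like cells, 2489 had 0 member UMIs, 708 had 1, 146 had 2 and 45 had 3, the last being the cells just inside the threshold. A further 84 cells had 20 to 49 and 18 had 50 or more, with a maximum of 85. The 317 tumour-like cells with 3 or more, called member-rich here, held 5490 UMIs, 84.6% of the class's member UMIs. Their summed level was 2256 CPM, against 56.9 CPM in tumour-like cells under 3, a gap that the choice of cells fixes. They carried a median of 11 member UMIs from 7 different members, and at most 24 of the 34 members were seen in a single cell. Member-rich cells were deeper, with a median of 7321 UMIs against 4597 in tumour-like cells with 0.

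**Figure D2:**
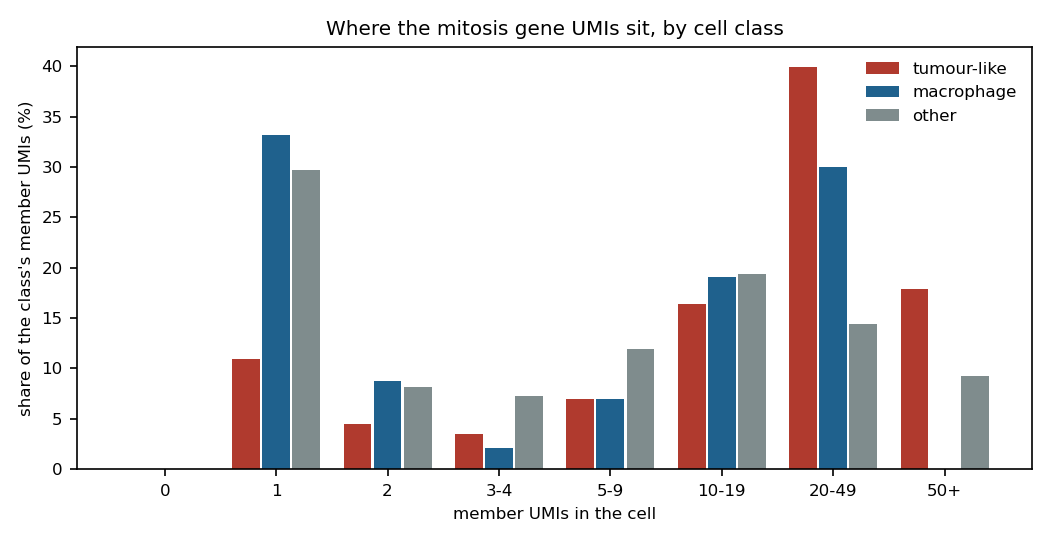
Share of each class's mitosis gene UMIs (vertical axis, percent) by the number of member UMIs in the cell (horizontal axis) in tumour-like, macrophage and other cells. In tumour-like cells 39.9% of the UMIs came from cells with 20 to 49 and 10.9% from cells with 1. In macrophages 29.95% came from 5 cells with 20 to 49, and 33.2% came from cells with 1. Counts are at full depth, and macrophages were shallower, with a median of 1639.5 UMIs against 5007 in tumour-like cells.

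Each gene was next compared between tumour-like cells and macrophages on CPM of the summed UMIs. Of the 34 members, 33 had at least 20 UMIs over both classes. Of these, 10 were at least 2-fold higher in tumour-like cells, beside 33.7% of the 11866 genes measured as well. A further 2 were at least 2-fold lower, beside 13.2% of those genes. The median log2 ratio was 0.63 over the 33 members and 0.47 over all genes. The number of higher members was near that background. The ratios of single members lay between 4.83 for Prc1 and 0.318 for Kif20a. Member UMIs were gathered in few cells, so the intervals of these ratios and of the group ratios below are too narrow.

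**Figure D3:**
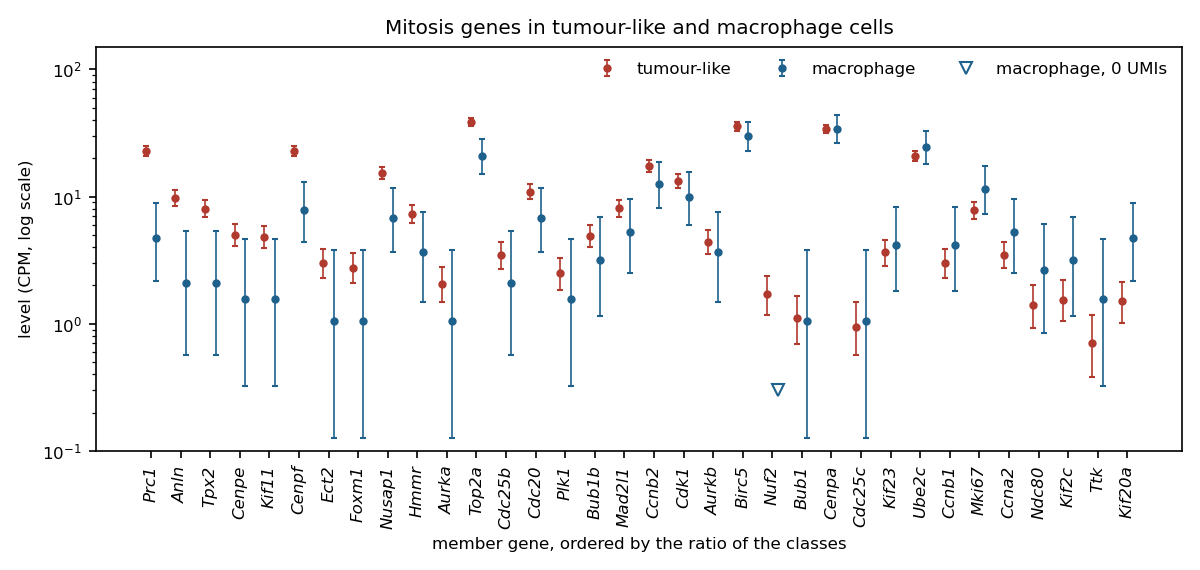
Level of each of the 34 mitosis genes (CPM, log axis) in tumour-like cells and macrophages, with exact Poisson 95% intervals, ordered by the ratio of the classes. Prc1, at 22.8 against 4.72 CPM, is at the left and Kif20a, at 1.5004 against 4.72 CPM, at the right. The open triangle marks Nuf2, with 0 UMIs in macrophages.

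Within tumour-like cells the members went together. For each gene, cells with 3 or more UMIs of the other 33 members were set against cells with 0 of the other 33, so that a gene's own counts did not choose its cells. Wherever a single gene is described below, these are the member-rich cells and the cells with 0 meant. All 34 had a UMI in a larger share of the member-rich cells. Of these, 31 had at least 20 UMIs over both sets, and all 31 were at least 2-fold higher, with a median of 47.3-fold and a range of 7.13-fold for Anln to 171-fold for Ccna2. Among non-members, 4.79% of 10957 genes were at least 2-fold higher in cells with 3 or more than in cells with 0 member UMIs. Most of these 31 reached 20 UMIs only through the member-rich cells, so that they were counted says nothing in itself. The other 3 were Cdc25c, with 17 against 2 UMIs, Bub1, with 15 against 4, and Ttk, with 10 against 3. Of the 31, 14 had at least 20 UMIs in the cells with 0 alone. In cells thinned to 2000 UMIs, 18 members were counted and at least 2-fold higher, but 7 had at least 20 UMIs in the cells with 0 alone, so the same limit holds. The count of 31 was not changed by leaving out barcodes called doublets. Shares of cells with a UMI of a gene are at full depth here and below, unless thinning is named. Member-rich cells were deeper, and such shares depend on depth.

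**Figure D4:**
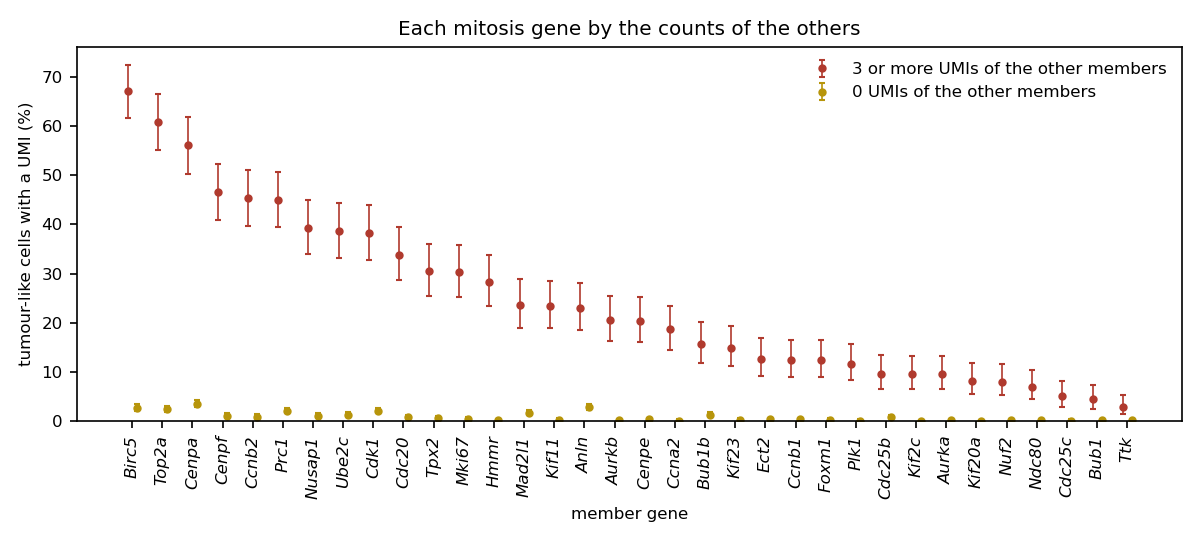
Share of tumour-like cells with a UMI of each mitosis gene (vertical axis, percent) among cells with 3 or more and among cells with 0 UMIs of the other 33 members. Bars are exact 95% intervals. Birc5 is at 67.2% against 2.70% and Ttk at 2.84% against 0.120%. Shares are at full depth, and the cells with 3 or more were deeper.

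The genes of the cyclin and kinase engine start mitosis. Their 9 members summed to 48.9 CPM in tumour-like cells and 38.8 CPM in macrophages, a ratio of 1.26 (0.993 to 1.62). Ccnb2, a B-type cyclin, stood at 17.4 CPM in tumour-like cells, 12.6 in macrophages and 10.97 in other cells. Cdk1, the kinase that cyclins A and B activate, stood at 13.3 CPM in tumour-like cells, 9.97 in macrophages and 10.6 in other cells. Both lay close together across classes, with ratios of tumour-like cells to macrophages of 1.38 (0.914 to 2.19) and 1.33 (0.835 to 2.24). Within tumour-like cells they differed more: Ccnb2 was seen in 45.3% of member-rich cells against 0.876% of cells with 0, and Cdk1 in 38.2% against 2.05%. In cells thinned to 2000 UMIs these shares were 33.3% against 0.460% for Ccnb2 and 24.4% against 0.846% for Cdk1.

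Ccna2, the cyclin of S phase and early mitosis, had the highest ratio of the 31 counted genes within tumour-like cells. It had 67 UMIs in 317 member-rich cells against 2 in 2491 cells with 0, a ratio of 171 (45.5 to 1441). The rank rests on those 2 UMIs. In cells thinned to 2000 UMIs Ccna2 had 11 against 4 UMIs, a ratio of 43.1 (12.8 to 185), and was not counted. The highest counted ratio was then that of Hmmr, 186 (58.5 to 944). Plk1, a kinase of spindle assembly and mitotic entry, had 47 against 2 UMIs, a ratio of 120.0 (31.4 to 1020). Aurka, the centrosome kinase, was 44.7-fold (16.0 to 173) higher, and Ccnb1, the main B-type cyclin, 32.7-fold (15.4 to 79.8). Foxm1, the transcription factor of many G2 and mitosis genes, was 32.9-fold (14.7 to 86.5) higher. Between classes Foxm1 was 2.62-fold (0.692 to 22.2) higher in tumour-like cells than in macrophages, from 55 against 2 UMIs. The interval of Foxm1 is wide and includes 1.

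The Cdc25 phosphatases, which remove the inhibiting phosphates of Cdk1, had few UMIs. Cdc25b stood at 3.45 CPM in tumour-like cells and 2.10 CPM in macrophages. Cdc25c had 19 UMIs in tumour-like cells and 2 in macrophages, a ratio of 0.906 (0.218 to 8.02) that turned to 1.48 when each cell's CPM was averaged. Cdc25b was among the members seen outside member-rich cells, which held 50.7% of its tumour-like UMIs. Its ratio within tumour-like cells was 8.24 (4.70 to 14.7).

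The spindle checkpoint keeps sister chromatids together until the spindle is ready. Its 4 members summed to 14.8 CPM in tumour-like cells and 11.02 in macrophages, a ratio of 1.34 (0.863 to 2.20). Mad2l1, which helps block the anaphase-promoting complex, stood at 8.10 CPM in tumour-like cells and 5.25 in macrophages. Member-rich cells held 48.8% of its tumour-like UMIs, the lowest share of the 34 members. Bub1b, which encodes BubR1, another part of that block, had 53.1% of its UMIs there. Their ratios within tumour-like cells, 10.3 (7.01 to 15.4) for Mad2l1 and 8.56 (5.41 to 13.7) for Bub1b, were among the 4 lowest. The kinase genes Bub1 and Ttk had 22 and 14 UMIs in tumour-like cells and 2 and 3 in macrophages.

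The centromere and kinetochore genes build the site where chromosomes meet the spindle. Their 5 members stood at 64.9 CPM (61.4 to 68.5) in tumour-like cells and 46.2 CPM (37.0 to 56.9) in macrophages. Cenpa, the histone H3 variant that marks centromeres, was nearly even across classes at 33.9 CPM in tumour-like cells, 34.1 in macrophages and 32.2 in other cells, beside 46.2 CPM in barcodes of 100 to 200 UMIs. Cenpf, a large kinetochore and nuclear matrix protein, stood at 22.9 CPM in tumour-like cells, 7.87 in macrophages and 12.7 in other cells. Its ratio of tumour-like cells to macrophages was 2.91 (1.75 to 5.24). Cenpe, the kinetochore motor, had a ratio of 3.18 (1.06 to 15.7), from 100 against 3 UMIs.

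The outer kinetochore genes Ndc80 and Nuf2, whose products bind microtubules as partners in a complex, had few UMIs. Nuf2 had 34 UMIs, 1.70 CPM (1.18 to 2.38), in tumour-like cells and 0 in macrophages, whose exact upper limit is 1.94 CPM, so no direction is given. Ndc80 had 28 and 5 UMIs, a ratio of 0.534 (0.203 to 1.77). Within tumour-like cells both went with the other members, Nuf2 by 49.9-fold (15.5 to 256) and Ndc80 by 23.5-fold (8.75 to 79.2). Cenpa was found in 56.1% of member-rich tumour-like cells against 3.45% of those with 0, Cenpf in 46.6% against 1.07%, and Cenpe in 20.4% against 0.320%.

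The chromosomal passenger genes were led by Birc5. Birc5, which encodes survivin, the protein that brings Aurora B to centromeres and the midzone, stood at 35.6 CPM in tumour-like cells, 29.9 in macrophages and 30.8 in other cells, beside 76.1 CPM in barcodes of 100 to 200 UMIs. It was seen in 67.2% (61.6 to 72.5%) of member-rich tumour-like cells, the highest share of the 34 members, against 2.70% of cells with 0. Aurkb, which encodes Aurora B itself, stood at 4.40 CPM in tumour-like cells and 3.67 in macrophages. Its ratio within tumour-like cells was 141 (46.8 to 700), from 83 against 3 UMIs. The pair had a ratio of tumour-like cells to macrophages of 1.19 (0.923 to 1.56), so the classes were close.

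Genes of spindle motors and microtubule proteins were higher in tumour-like cells than in macrophages as a group. The 5 members summed to 37.2 CPM (34.5 to 39.9) in tumour-like cells and 17.3 CPM (11.9 to 24.3) in macrophages, a ratio of 2.15 (1.51 to 3.14). Of all genes counted between these classes, 33.7% were at least 2-fold higher in tumour-like cells, and the median log2 ratio was 0.47. Tpx2, which activates Aurora A on spindle microtubules, stood at 8.05 and 2.10 CPM, a ratio of 3.84 (1.47 to 14.3). Kif11, the motor that pushes spindle poles apart, had a ratio of 3.08 (1.02 to 15.2) and Nusap1, which bundles spindle microtubules, 2.25 (1.30 to 4.28). Hmmr, a spindle and hyaluronan-binding protein, stood at 7.35 CPM in tumour-like cells and 3.67 in macrophages, a ratio of 2.002 (0.947 to 5.07). Kif2c, which takes microtubule ends apart, was the exception in the group, at 1.55 and 3.15 CPM and a ratio of 0.492 (0.202 to 1.44). Its interval includes 1 and rests on 6 macrophage UMIs.

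Kif2c had the highest share of its tumour-like UMIs in member-rich cells of the 34 genes, 30 of 31. Hmmr had 93.2% of its UMIs there and a ratio of 141 (59.1 to 442). Nusap1 was seen in 39.4% of member-rich cells against 1.07% of cells with 0, Tpx2 in 30.5% against 0.678% and Kif11 in 23.4% against 0.280%.

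The central spindle and cytokinesis genes held both ends of the comparison of classes. Their 5 members summed to 40.7 CPM in tumour-like cells and 16.8 CPM in macrophages, a ratio of 2.42 (1.70 to 3.56). The median log2 ratio over all genes was 0.47. Prc1, which bundles the central spindle, stood at 22.8 CPM in tumour-like cells, 4.72 in macrophages and 14.1 in other cells. Its ratio of tumour-like cells to macrophages was 4.83 (2.52 to 10.6). Anln, the cleavage furrow scaffold anillin, followed at 4.62 (1.78 to 17.1), from 194 against 4 UMIs. Ect2, which activates RhoA at the furrow, had a ratio of 2.86 (0.758 to 24.2), and 1.57 when each cell's CPM was averaged. Kif20a, a kinesin of the midzone, stood at 1.5004 CPM in tumour-like cells and 4.72 in macrophages, from 30 and 9 UMIs. Its ratio was 0.318 (0.147 to 0.761). Of the 9 macrophage UMIs, 3 lay in member-rich macrophages and 6 in macrophages with under 3 member UMIs. Kif23, a centralspindlin motor, stood at 3.65 and 4.20 CPM.

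Anln differed from Prc1 in where it was found within tumour-like cells. Prc1 was seen in 45.05% of member-rich cells against 2.05% of cells with 0, and 85.1% of its UMIs lay in member-rich cells. Anln was seen in 23.0% against 2.77%, with 48.97% of its UMIs in member-rich cells and a ratio of 7.13 (5.19 to 9.84). Kif20a had 28 UMIs in member-rich cells against 1, Kif23 62 against 7 and Ect2 45 against 11.

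Cdc20 and Ube2c serve the anaphase-promoting complex, as its activator and its ubiquitin-conjugating enzyme. Together they stood at 31.8 CPM in tumour-like cells and 31.5 in macrophages, a ratio of 1.01 (0.773 to 1.34). Ube2c stood at 20.9 CPM in tumour-like cells, 24.7 in macrophages and 16.8 in other cells, beside 54.0 CPM in barcodes of 100 to 200 UMIs. Cdc20 stood at 10.9 CPM in tumour-like cells, 6.82 in macrophages and 10.97 in other cells. Both were concentrated in member-rich tumour-like cells, Ube2c in 38.7% against 1.27% and Cdc20 in 33.9% against 0.797%.

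The chromosome structure genes are Top2a, the enzyme that untangles DNA strands before chromosomes part, and Mki67, which encodes Ki-67, a coat protein of mitotic chromosomes. Top2a had the most UMIs of the 34 members in tumour-like cells, 772, and stood at 38.6 CPM in them, 21.0 in macrophages and 24.3 in other cells. Its ratio of tumour-like cells to macrophages was 1.84 (1.34 to 2.60). Mki67 went the other way in value, at 7.80 CPM in tumour-like cells and 11.5 in macrophages, a ratio of 0.676 (0.431 to 1.11). Within tumour-like cells, Top2a was seen in 60.9% of member-rich cells against 2.39% of cells with 0, and Mki67 in 30.4% against 0.480%. Leaving Top2a out of the set put the share of tumour-like cells with 3 or more at 8.03%.

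All 34 genes are annotated as protein-coding in the GENCODE annotation of GRCm38, and none overlaps another gene on its own strand. Genes on the opposite strand overlap Ccna2, Cdc25b, Cdc25c, Nusap1, Kif20a, Prc1, Cdc20 and Ube2c. Whether the authors counted by strand is not given in the sources used here, so the counts of these 8 genes are less certain. The overlapping gene with the most UMIs in tumour-like cells was Elovl1, with 743, beside Cdc20.

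The member-rich macrophages were few. The 19 cells held 252 of the 434 macrophage member UMIs, 58.1%. Their summed level was 4707 CPM (4144 to 5325), against 98.3 CPM in macrophages under 3, a gap that the choice of cells fixes. They carried between 3 and 32 member UMIs with a median of 10, and 11 of them had 10 or more. The 19 cells had 8 to 62 C1q UMIs with a median of 25, and their keratin-set UMIs were 0 in 12 cells and 1 in 7. The class rule allows at most 1 keratin-set UMI and asks for 3 or more C1q UMIs, so low keratin-set counts were fixed by it. Scrublet, which marks barcodes likely to hold a pair of cells, marked 0 macrophages. Birc5 was seen in 70.6% (44.0 to 89.7%) of macrophages with 3 or more UMIs of the other members, 12 of 17, against 1.32% of those with 0. Ube2c was seen in 52.6% against 1.54% and Top2a in 52.6% against 1.76%. Only these 3, Cenpa and Ccnb2 reached 20 UMIs over both sets, and their ratios lay between 19.7 and 95.02. Of these genes only Cenpa, with 22 against 37 UMIs, reached 20 in the cells with 0 alone. The high ratios of the others therefore partly restate the minimum. The member-rich macrophages had a median of 2417 UMIs against 1613 in those with 0.

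The 1706 other cells fell into smaller sets by marker genes. Of 152 barcodes with markers of both classes, 8.55% (4.63 to 14.2%) had 3 or more member UMIs, and Scrublet marked 46 of these 152. Of 560 barcodes rich in MHC class II transcripts, 1.25% (0.504 to 2.56%) did, and of 794 that met none of these marker rules, 2.90% (1.84 to 4.31%). Of 24 barcodes with T cell markers 1 did, and of 90 with B cell markers 0 did, which allows a share of up to 3.33% at a floor of 3 counts (exact upper limit 4.02%). Barcodes rich in haemoglobin had 0 of 84, which allows up to 3.57% at that floor (exact upper limit 4.30%). Whether these barcodes held mitosis transcripts of their own was not tested. At least 1 member UMI was seen in 11.9% of them, at a median depth of 1354 UMIs. In macrophages the share with at least 1 was 16.9%, at a median of 1639.5 UMIs. A single member UMI is not read as expression here. Median depth was 4688.5 UMIs in barcodes with markers of both classes, 1334 in the MHC class II set and 945 in those meeting no rule. Thinned to 2000 UMIs, 5.69% (2.32 to 11.4%) of 123 barcodes with markers of both classes had 3 or more member UMIs. In the MHC class II set it was then 7.94% (2.63 to 17.6%) of 63 barcodes, with 497 shallower ones left out.

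Other mitosis genes, chosen as a list of 73 non-members, were higher in the same tumour-like cells. Of the 62 counted, 57 were at least 2-fold higher in cells with 3 or more than in cells with 0 member UMIs, beside 4.79% of the 10957 non-member genes. Of the 62, 38 had at least 20 UMIs in the cells with 0 alone, and 33 of these 38 were at least 2-fold higher. The others were counted only through the member-rich cells or both sets together, so their high ratios partly restate the minimum. None was 2-fold lower, beside 5.53% of non-member genes. Their median log2 ratio was 3.74, against -0.03 over all genes counted. Kif4, a chromosome-bound kinesin, stood at 23.0 against 0.161 CPM, a ratio of 143 (37.7 to 1209). Ska1, a microtubule-binding kinetochore protein, had a ratio of 122 (32.1 to 1040), the kinase gene Pbk 83.7 (34.4 to 265) and Sgol1, which protects the cohesion of sister centromeres, 66.8 (42.9 to 110). The lowest were Wee1, the kinase that holds Cdk1 inactive, at 0.984 (0.710 to 1.34), and Pttg1, which encodes securin, at 74.8 against 117 CPM, a ratio of 0.637 (0.543 to 0.744).

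Genes of DNA replication, which act in S phase before mitosis, were also higher in the member-rich cells. Of 48 counted, 42 were at least 2-fold higher, beside 4.79% of 10957 non-member genes. None was 2-fold lower, beside 5.53% of those genes, and the median log2 ratio was 1.90. In the cells with 0 alone, 43 had at least 20 UMIs, and 37 of these were at least 2-fold higher. Rrm2, a subunit of the enzyme that makes deoxyribonucleotides, had a ratio of 83.3 (26.9 to 418), from 49 against 3 UMIs. Uhrf1, which maintains DNA methylation, had a ratio of 25.8 (15.2 to 46.3), thymidine kinase gene Tk1 21.6 (14.5 to 33.01) and the fork protein gene Clspn 13.1 (6.91 to 26.3). Rpa3 and Rfc1, of the single-strand binding and clamp loader complexes, were at 1.36 (1.15 to 1.60) and 1.33 (1.08 to 1.63).

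The G1 cyclins, their kinases and inhibitors were mixed. Of 19 counted, 2 were at least 2-fold higher, beside 4.79% of non-member genes, and 3 were at least 2-fold lower, beside 5.53%. The median log2 ratio was 0.15. Cdk2, the kinase of S phase entry, had a ratio of 3.12 (1.75 to 5.45) and the Rb family gene Rbl1 was the other higher gene, at 9.86 against 1.37 CPM. Rb1 stood at 1.64 (0.907 to 2.83), Ccnd1, cyclin D1, at 1.60 (1.39 to 1.83) and its partner Cdk4 at 1.54 (1.40 to 1.69). Cdkn1a, which encodes the inhibitor p21, stood at 41.9 against 105 CPM, a ratio of 0.398 (0.322 to 0.487). Btg2, an antiproliferative gene, stood at 329 against 750 CPM, a ratio of 0.439 (0.408 to 0.472). The third lower gene was Ccnd2, cyclin D2, at 4.93 against 10.7 CPM. Rbl1 and Ccnd2 were named after their values were seen.

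**Figure D5:**
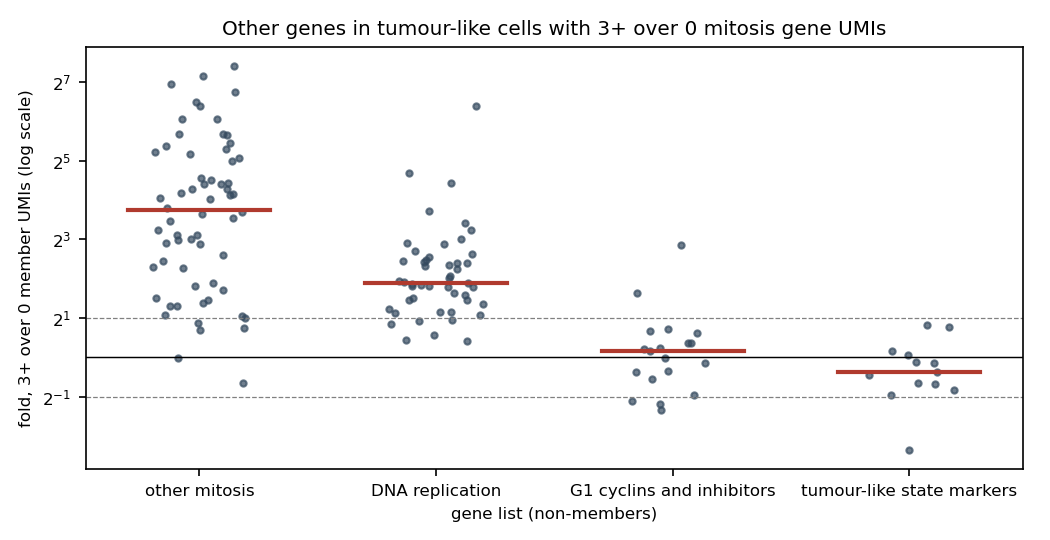
Ratio of CPM in tumour-like cells with 3 or more to those with 0 member UMIs (log axis) for each counted gene of 4 lists of non-members. Bars are list medians and dashed lines mark 2-fold. The medians on the log2 scale are 3.74 for other mitosis genes, 1.90 for DNA replication, 0.15 for G1 genes and -0.38 for markers of tumour-like states.

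Markers of the states that tumour-like cells fall into were mostly below 1. None of 13 was 2-fold higher in member-rich cells, beside 4.79% of 10957 non-member genes. Only 1 was 2-fold lower, beside 5.53% of those genes, so both counts are near the background. The median log2 ratio was -0.38, against -0.03 over all genes counted. The glutathione transferase genes Gstm1 and Gstm2 stood at 2832 against 5065 CPM and at 1278 against 2028 CPM. The complement gene C3 was at a ratio of 0.513 (0.449 to 0.584), Spry2 at 0.642, Defb19 at 0.740, Pam at 0.768, Abhd2 at 0.908 and Abcb1b at 0.918. Defb36 and Lgals2 were near even at 1.05 and 1.11. Wfdc18 and Gng13 were higher, at 1.70 (1.55 to 1.87) and 1.78 (1.51 to 2.10), while Sncg, which heads the same state, was at 0.196 (0.0525 to 0.518) from 4 against 104 UMIs. These markers came from an earlier grouping of the same cells.

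Markers of other cell types were given for the same cells. The keratin set stood at 1787 CPM in member-rich tumour-like cells against 1962 CPM in those with 0, and C1q at 20.5 against 24.6 CPM. The class rule chose both sets by these genes, so high keratin-set and low C1q levels were fixed in advance. MHC class II genes stood at 420.0 against 928 CPM, and haemoglobin at 1068 against 1528 CPM. T cell markers had 0 UMIs in 317 member-rich cells and 2 UMIs in 2489 cells with 0. The part of the MHC class II and haemoglobin transcripts in the ratios was not tested.

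Member-rich tumour-like cells were further set apart by their replication genes, with cell depths equalised to 2000 UMIs for the split. The split was chosen after the data had been seen. The 113 cells with 5 or more replication UMIs had a median of 7 such UMIs and the 114 with at most 2 had a median of 1. Between them lay 84 cells, and 6 shallower ones were left out. The full depths of the replication-high and replication-low cells were similar, with medians of 7354 and 6999 UMIs. Of the 30 members counted, 1 was at least 2-fold higher in replication-high cells, beside 2.78% of 5858 genes of neither list. Another 1 was at least 2-fold lower, beside 3.53% of those genes. The median log2 ratio was 0.17 over the members and -0.05 over the other genes.

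Foxm1 was the higher member, at 28.5 CPM in replication-high and 9.47 CPM in replication-low cells, a ratio of 3.01 (1.32 to 7.72). Cenpe was the lower, at 19.4 and 42.6 CPM, a ratio of 0.455 (0.239 to 0.831). Top2a stood at 350 against 225 CPM, a ratio of 1.56 (1.29 to 1.87), Cdk1 at 98.0 against 62.7 CPM, a ratio of 1.56 (1.10 to 2.24), and Tpx2 at a ratio of 1.62 (1.05 to 2.54). Below 1 were Ccnb2, at 91.1 against 153 CPM and 0.597 (0.446 to 0.795), and Cenpa, at 174 against 252 CPM and 0.691 (0.558 to 0.855). Birc5 was near even, at 1.11 (0.918 to 1.34), and so were Ube2c at 1.14 (0.888 to 1.47), Prc1 at 1.15 (0.899 to 1.47) and Cenpf at 0.873 (0.687 to 1.11).

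Replication genes were also counted in cells with 0 member UMIs after thinning, some of which held member UMIs at full depth. At 2000 UMIs a cell, 5 or more replication UMIs were found in 3.34% of 2814 tumour-like cells with 0 member UMIs and in 15.9% of 409 with 1 or 2. With more member UMIs the share was 35.1% of 74 cells with 3 to 5, 32.9% of 73 with 6 to 10 and 42.4% of 33 with 11 or more. The intervals of the last 3 groups overlap. Of 223 tumour-like cells with 5 or more replication UMIs, 94 (42.2%) had 0 member UMIs and 64 had 3 or more.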

How the data were processed

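Single cells of ascites were measured in 1 library. The values deposited by the authors are counts of UMIs per gene and barcode, in 1 matrix of 27998 genes, 737280 barcodes and 35733776 UMIs, per the file headers, with no selection of cells. For the aligner and the genome build, the answer is not given in the sources used here. Symbols and identifiers are the authors'. A bulk table deposited by the authors was not used, because its 8 columns have names that match no sample label, so the cultured samples enter no comparison.

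Cells were filtered and classed as described with the results, and likely doublets were kept. Scrublet, in scanpy 1.11.5, marked 89 of 6442 cells (1.38%) and is an alternative. A gene's UMIs were added up within a set of cells and divided by all UMIs of the set (CPM), with exact Poisson intervals. Shares have Clopper-Pearson intervals and ratios exact conditional binomial intervals, at 95%, for counting error only. The intervals of levels and ratios do not cover the uneven spread of UMIs over cells. A gene was counted at 20 or more UMIs over both sets, and a count of 0 was taken as a floor of 3. Thinning drew UMIs without replacement with a fixed seed. With 1 library no test was made. The calculations were tested on simulated data. Tools were Python 3.11.15, numpy 2.4.6, scipy 1.17.1, pandas 2.3.3 and matplotlib 3.10.9.

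Named were all members, the 4 highest and 2 lowest genes of each list at 50 or more UMIs, and every state marker. The members and lists were chosen with earlier results of these data known. Promoter windows are from RefSeq, GRCm38.p6, and positions from GENCODE on GRCm38. Depth was 500 to 19947 UMIs a cell, with a median of 3300. Alternatives were other cell filters, doublets left out, other class rules and thresholds, the leading member left out, thinning, another minimum count and another scaling.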

Additional observations from a re-analysis of the deposited data

Results flagged for a closer look

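Barcodes outside the cell filter also carried mitosis gene UMIs. Among the 519 barcodes with over 15% mitochondrial UMIs, 7.51% (5.40 to 10.1%) had 3 or more member UMIs, at a summed level of 734 CPM. Of these barcodes 264 met the tumour-like rule, and 28 of them (10.6%, 7.16 to 14.96%) had 3 or more. Barcodes of 100 to 200 UMIs, too shallow to be kept as cells, had a member level of 448 CPM (433 to 463), from 3507 UMIs in 58272 barcodes. Barcodes of 1 to 50 UMIs stood at 369 CPM (304 to 444). Both are above the 325 CPM of all tumour-like cells, the 228 CPM of macrophages and the 245 CPM of other cells, though the intervals of 369 and 325 CPM overlap. The part that free RNA plays in the class levels and in single member UMIs was not tested.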

How the results depend on the processing

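No paired analysis was possible because the vehicle and deferiprone samples, which share replicate numbers, could not be matched to the bulk columns, and the cells are 1 library. Of 44 alternative values, 32 stayed within the counting interval or within 1.5 times the count, and 12 moved. Each was set against its own main value, so the order of the classes was not judged in this way. At 2000 UMIs that order changed, with other cells at 5.72% and tumour-like cells at 5.29%, though their intervals overlap. The share of tumour-like cells moved to 12.7% with 2 or more member UMIs, 6.80% with 5 or more, 2.96% at 1000 UMIs a cell and 5.29% at 2000. The macrophage share moved to 3.53% with 2 or more and 4.42% at 2000 UMIs. The share of other cells moved to 3.79% with at least 1000 UMIs per cell, 4.19% with the other class's markers at 0, which moves cells into this class, 4.28% with 2 or more, 1.64% with 5 or more and 5.72% at 2000 UMIs. The leave-one-out count was 18 at 2000 UMIs, where fewer members reach 20 UMIs. The count of members at least 2-fold higher in tumour-like cells was 9 to 13. Depth limits the macrophage values to 19 member-rich cells, and 14 of the 34 members had 5 or fewer macrophage UMIs. Other cells were shallower still, and the tumour-like share also fell with thinning.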
